A study of Mus musculus with 13 samples.

Results

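Natural killer (NK) cells and cytotoxic T cells kill target cells by releasing granules, and 9 genes of that machinery were followed in perivascular adipose tissue, the fat around blood vessels. They were chosen by name from the 34013 genes of a count table: the granule proteases Gzma, Gzmb and Gzmk, the pore-forming Prf1, the granule membrane protein Nkg7, the receptors Klrd1, Klrb1c and Ncr1, and the transcription factor Eomes. The tissue came from mice on a C57BL/6 background that had received splenocytes. The 3 NTS-R libraries had diabetic Nlrp3 knockout donors and the 4 TS-R libraries donors with type 2 diabetes (T2DM). The donors of the 3 NS-R libraries were Nlrp3 knockouts without diabetes in their label, and those of the 3 WTS-R libraries were wild type. Nlrp3 encodes the sensor of an inflammasome. The labels do not say whether their genotype field describes the donor or the recipient, how diabetes was induced, how many cells were given, or at what age or time tissue was taken, and groups follow the sample titles. A library is named by its group and replicate number, so TS-R 3 is replicate 3 of TS-R.

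In a killer lymphocyte, perforin opens a path into the target cell and granzymes, which are serine proteases, enter and cut proteins that trigger its death. NK cells decide whom to kill through a balance of activating receptors and inhibitory receptors for MHC class I, whereas cytotoxic T cells use their antigen receptor, built with the Cd3 chains. Granule genes are shared between both cell types. Ncr1 and Klrb1c (the NK1.1 antigen of C57BL/6 mice) are the most NK-restricted of the 9, with innate lymphoid relatives and NKT cells as other sources. In bulk tissue, fewer cells of a type and less RNA per cell cannot be told apart.

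In GENCODE M21 (GRCm38), the granzyme genes lay as Gzma (ENSMUSG00000023132) at chr13:113093825-113100981 on the minus strand, Gzmk (ENSMUSG00000042385) at chr13:113171608-113225908 on the minus strand and Gzmb (ENSMUSG00000015437) at chr14:56258838-56262260 on the minus strand. The other granule genes were Prf1 (ENSMUSG00000037202) at chr10:61297833-61304680 on the plus strand and Nkg7 (ENSMUSG00000004612) at chr7:43437073-43438249 on the plus strand. Of the receptors, Klrd1 (ENSMUSG00000030165) at chr6:129591782-129598775 on the plus strand and Klrb1c (ENSMUSG00000030325) at chr6:128778485-128789215 on the minus strand shared a chromosome, and Ncr1 (ENSMUSG00000062524) at chr7:4337724-4345164 on the plus strand lay elsewhere. The factor gene was Eomes (ENSMUSG00000032446) at chr9:118478212-118486132 on the plus strand. Counts are per gene, and the build the authors counted on is not stated in the labels.

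The promoters of the granule genes are shown because these 5 genes fell into different patterns across the libraries. RefSeq (GRCm38.p6) held a promoter for 8 of the 9 genes, all but Klrd1. The 200 bases before the annotated start are printed 5′ to 3′ on the strand of the gene. Capitals mark matches, on either strand, to 3 motif cores: AGGTGT for T-box factors, TGTGGT for RUNX factors and GGAAGT for ETS factors. A match on the opposite strand is printed as the reverse complement of these letters, and no match overlapped another. Eomes and its relative Tbx21 are T-box factors. Letters in capitals are string matches, not measured binding. The annotated starts are those of RefSeq, and some differ from the GENCODE coordinates above. By GENCODE, the Gzmk window lies within the gene, and the Nkg7 and Prf1 windows end within it.
Gzma (chr13:113100982-113101181, - strand): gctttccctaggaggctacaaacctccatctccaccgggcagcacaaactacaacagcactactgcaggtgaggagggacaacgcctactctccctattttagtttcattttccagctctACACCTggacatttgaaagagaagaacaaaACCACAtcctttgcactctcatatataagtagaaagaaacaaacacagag
Gzmb (chr14:56262335-56262534, - strand): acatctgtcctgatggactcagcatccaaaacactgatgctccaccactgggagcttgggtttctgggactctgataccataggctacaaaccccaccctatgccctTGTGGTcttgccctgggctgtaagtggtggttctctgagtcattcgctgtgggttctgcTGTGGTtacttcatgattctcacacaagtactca
Gzmk (chr13:113180966-113181165, - strand): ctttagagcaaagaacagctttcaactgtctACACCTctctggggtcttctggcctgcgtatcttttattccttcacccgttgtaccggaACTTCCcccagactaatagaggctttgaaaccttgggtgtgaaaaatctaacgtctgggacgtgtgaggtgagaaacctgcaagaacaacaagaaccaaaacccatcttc
Prf1 (chr10:61297636-61297835, + strand): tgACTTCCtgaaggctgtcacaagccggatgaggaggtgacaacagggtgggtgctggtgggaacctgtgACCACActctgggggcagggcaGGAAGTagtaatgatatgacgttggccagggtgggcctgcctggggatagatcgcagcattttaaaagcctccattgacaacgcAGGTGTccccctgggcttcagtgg
Nkg7 (chr7:43436938-43437137, + strand): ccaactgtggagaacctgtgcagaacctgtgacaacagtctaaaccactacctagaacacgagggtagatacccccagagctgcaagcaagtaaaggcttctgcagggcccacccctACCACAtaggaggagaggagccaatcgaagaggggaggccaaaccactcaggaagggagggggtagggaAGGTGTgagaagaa
The T-box core occurred in 4 of the 8 promoters (Gzma, Gzmk, Prf1 and Nkg7), and in 9.32% of all 32851 RefSeq promoter windows of the same length. Its matches began at -80 in Gzma, -169 in Gzmk, -24 in Prf1 and -14 in Nkg7, counted from the RefSeq start. By GENCODE, the Gzmk and Nkg7 matches lie within the gene. The RUNX core occurred in 6 of 8 (Gzma, Gzmb, Prf1, Nkg7, Klrb1c and Ncr1; 11.2% of all windows), with 2 matches in Gzmb at -93 and -34. The ETS core occurred in 3 of 8 (Gzmk, Prf1 and Klrb1c; 16.7% of all windows), with 2 matches in Prf1. The Klrb1c window also lies within the gene by GENCODE, and so do its RUNX and ETS matches and the ETS match of Gzmk. The Eomes window held none of the 3 cores. Gzma, Prf1 and Nkg7 each held both a T-box and a RUNX core.

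Libraries held 14216706 to 37011122 counts, so 3 counts, the most that a count of 0 allows, amounted to 0.0811 CPM (counts scaled to a library total of 1000000) in NS-R 1, the deepest library, and 0.211 CPM in NTS-R 3, the shallowest. The adipocyte gene Adipoq was present in every library, from 438.5 CPM in TS-R 3 to 1813 CPM in NTS-R 1. The libraries differed in other tissue, also within groups. Summed over its 17 genes, the T cell list had 16.4 to 40.9 CPM in NTS-R, 41.3 to 1321 CPM in TS-R, 20.1 to 38.4 CPM in NS-R and 14.6 to 21.9 CPM in WTS-R. Glycam1, a product of lymph node venules, had 0.0336, 74.3, 1166 and 8.54 CPM across TS-R 1 to TS-R 4 and 0.116 CPM or less, with 3 libraries at 0, in all other groups. The 2 libraries TS-R 3 and NS-R 3 had high Xist, an RNA of female cells, and the other libraries did not. These contents stand beside each result below, and their part in it was not tested.

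All 9 genes were detected, at low levels. Over the 13 libraries their summed counts ran from 105 for Ncr1 to 1531 for Nkg7. Gzma, Gzmb, Nkg7 and Klrd1 exceeded 3 counts in every library. Gzmk was at or under 3 counts in 6 libraries, Ncr1 in 5, Eomes in 4, Klrb1c in 2 and Prf1 in 1. All 9 passed the filter on low counts that left 17270 genes for testing. Outside TS-R, Gzmk reached at most 0.354 CPM, Ncr1 0.414 CPM and Eomes 0.492 CPM. These genes passed through their TS-R libraries, so counting them below as higher in TS-R is not independent of the filter.

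**Figure D1:**
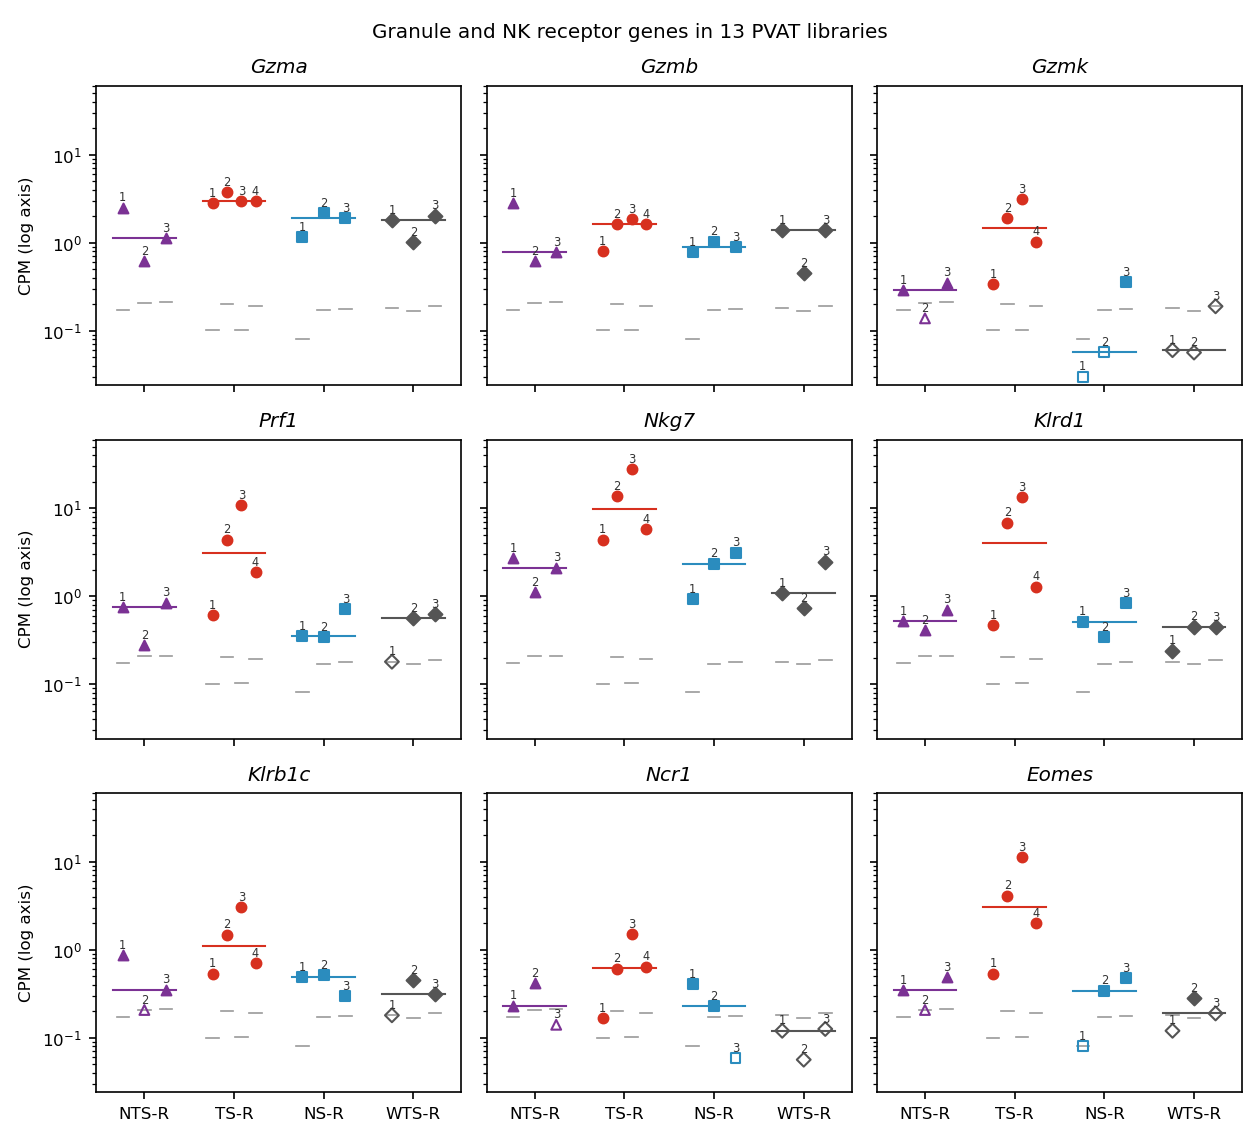
CPM of each gene in the 13 libraries on a log axis, by group, with the replicate number above each point and the group median as a bar. Grey ticks mark 3 counts in that library, open symbols are libraries at or under it, and the library with 0 counts of Gzmk is drawn at the foot of the axis; Gzma runs between 0.621 and 3.72 CPM, with the 4 TS-R libraries on top, and Gzmb between 0.452 and 2.78 CPM, while the other 7 genes peak in TS-R 3, up to 27.9 CPM for Nkg7.

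Among the granzymes, Gzma, the tryptase that is abundant in resting NK cells, had 2.49, 0.621 and 1.13 CPM in NTS-R, 2.79, 3.72, 2.97 and 2.95 CPM in TS-R, 1.16, 2.17 and 1.89 CPM in NS-R, and 1.80, 1.02 and 2.02 CPM in WTS-R. Every TS-R library lay above every library of the other groups, and the TS-R values were close to each other (3.11 ± 0.417 CPM, SD, n = 4). Gzmb, the aspartate-directed protease that activates caspases, had 2.78, 0.621 and 0.774 CPM in NTS-R, 0.805, 1.62, 1.84 and 1.61 CPM in TS-R, 0.784, 1.03 and 0.886 CPM in NS-R, and 1.38, 0.452 and 1.39 CPM in WTS-R. For Gzmb the groups overlapped in all 4 comparisons, and its highest value was in NTS-R 1.

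Gzmk, a granzyme of memory CD8 T cells and a subset of NK cells, behaved otherwise. It had 0.290, 0.138 and 0.352 CPM in NTS-R, 0.336, 1.89, 3.14 and 1.03 CPM in TS-R, 0, 0.0570 and 0.354 CPM in NS-R, and 0.0601, 0.0565 and 0.189 CPM in WTS-R. No TS-R library fell into the WTS-R range, but TS-R 1 lay within the range of NTS-R and NS-R. The 3 WTS-R libraries held 5 counts in all, against 146 in TS-R, a ratio of 16.4 per count sequenced with an exact 95% interval of 6.87 to 51.2 that covers counting error only.

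Prf1, the perforin gene, had 0.754, 0.276 and 0.844 CPM in NTS-R, 0.604, 4.40, 10.8 and 1.86 CPM in TS-R, 0.351, 0.342 and 0.709 CPM in NS-R, and 0.180, 0.565 and 0.630 CPM in WTS-R. TS-R 2, TS-R 3 and TS-R 4 were above all other libraries, whereas TS-R 1 was within the range of each of the other groups. Nkg7, which is needed for granule release, was the most abundant of the 9. It had 2.72, 1.10 and 2.11 CPM in NTS-R, 4.40, 13.7, 27.9 and 5.72 CPM in TS-R, 0.919, 2.34 and 3.13 CPM in NS-R, and 1.08, 0.734 and 2.46 CPM in WTS-R. For Nkg7 every TS-R library, TS-R 1 included, was above every library of the other groups.

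Of the receptors, Klrd1 (CD94) pairs with NKG2 chains to read the MHC class I molecule Qa-1, and is also found on activated CD8 T cells. It had 0.522, 0.414 and 0.703 CPM in NTS-R, 0.470, 6.83, 13.4 and 1.28 CPM in TS-R, 0.513, 0.342 and 0.827 CPM in NS-R, and 0.240, 0.452 and 0.441 CPM in WTS-R. TS-R 2 and TS-R 3 stood far above the rest, and TS-R 1 exceeded the highest WTS-R library only narrowly. Klrb1c had 0.870, 0.207 and 0.352 CPM in NTS-R, 0.537, 1.49, 3.07 and 0.707 CPM in TS-R, 0.486, 0.513 and 0.295 CPM in NS-R, and 0.180, 0.452 and 0.315 CPM in WTS-R. Its TS-R and WTS-R libraries did not overlap, and NTS-R 1 lay within the TS-R range. Ncr1, which encodes the activating receptor NKp46, had 0.232, 0.414 and 0.141 CPM in NTS-R, 0.168, 0.609, 1.5 and 0.642 CPM in TS-R, 0.405, 0.228 and 0.0590 CPM in NS-R, and 0.120, 0.0565 and 0.126 CPM in WTS-R. All 3 WTS-R libraries were at or under 3 counts for Ncr1, with 5 counts in all, against 68 in TS-R, a ratio of 7.63 with an exact 95% interval of 3.12 to 24.3 for counting error only. TS-R 1, NTS-R and NS-R overlapped for this gene.

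Eomes directs the maturation of conventional NK cells and is shared with effector and memory CD8 T cells. It had 0.348, 0.207 and 0.492 CPM in NTS-R, 0.537, 4.13, 11.2 and 1.99 CPM in TS-R, 0.0811, 0.342 and 0.472 CPM in NS-R, and 0.120, 0.282 and 0.189 CPM in WTS-R. All 4 TS-R libraries exceeded all others, TS-R 1 by a small margin. Within TS-R, 8 of the 9 genes were highest in TS-R 3 and 1, Gzma, in TS-R 2. TS-R 1 was the lowest TS-R library for all 9.

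Per kilobase of exon, which allows levels of different genes to be compared, Nkg7 led in NTS-R (2.17 ± 0.895 CPM per kb, SD, n = 3), in TS-R (14.1 ± 11.8, n = 4) and in NS-R (2.33 ± 1.23, n = 3). In WTS-R Gzma came first at 1.60 ± 0.524 CPM per kb and Nkg7 next at 1.56 ± 0.997 (n = 3 each), a difference smaller than either SD. In TS-R the order after Nkg7 was Klrd1 at 4.29 ± 4.66, Gzma at 3.09 ± 0.415, Prf1 at 1.71 ± 1.76, Gzmk at 1.15 ± 0.870, Eomes at 1.07 ± 1.14, Gzmb at 1.02 ± 0.317, Klrb1c at 0.490 ± 0.390 and Ncr1 at 0.474 ± 0.362 CPM per kb (n = 4). Except for Gzmb and Klrb1c, each gene in that order differed from the next by less than the larger of their SDs. In the other 3 groups Gzma, Nkg7 and Gzmb held the first 3 places and Klrd1 the fourth, while Eomes was last, at 0.0840 ± 0.0343 in NTS-R, 0.0718 ± 0.0480 in NS-R and 0.0475 ± 0.0196 CPM per kb in WTS-R (n = 3 each).

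The first comparison asked what splenocytes of diabetic donors did, TS-R against WTS-R. Mean levels of all 9 genes were higher in TS-R. The fitted differences were larger for Eomes, Gzmk, Klrd1, Prf1, Nkg7, Ncr1 and Klrb1c than for Gzma, whose groups did not overlap, and Gzmb, whose groups did. The fitted log2 fold change was 4.14 (SE 0.99) for Eomes, 3.64 (SE 1.06) for Gzmk, 3.53 (SE 0.96) for Klrd1, 2.95 (SE 0.87) for Prf1 and 2.90 (SE 0.72) for Nkg7. It was 2.52 (SE 0.81) for Ncr1 and 1.88 (SE 0.66) for Klrb1c, but 0.68 (SE 0.43) for Gzma and 0.19 (SE 0.53) for Gzmb. The fitted values for Gzmk and Ncr1 depend on the prior count, since WTS-R held so few of their reads. The median over the 9 was 2.90, beside 0.03 over all genes tested.

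None of the 9 passed an FDR of 0.05 in the edgeR quasi-likelihood test, in which 0% of all genes were called. The edgeR FDR was 0.0624 for Eomes and Nkg7, 0.0705 for Klrd1, 0.0792 for Gzmk, 0.0803 for Prf1, 0.0990 for Ncr1, 0.121 for Klrb1c, 0.368 for Gzma and 0.870 for Gzmb. At an unadjusted p under 0.05, 7 of the 9 were higher (all but Gzma and Gzmb), beside 15.2% of all genes. In 7 of the 9 (all but Gzmb and Prf1) every TS-R library was above every WTS-R library, beside 19.2% of all genes. DESeq2 called 5 (Eomes, Gzmk, Klrd1, Nkg7 and Prf1), with 8.11% of genes called higher, and limma with voomWithQualityWeights called 7, with 13.5% called higher. Neither tool called Gzma or Gzmb. With no filter on low counts edgeR called 3, beside 2.42%.

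**Figure D2:**
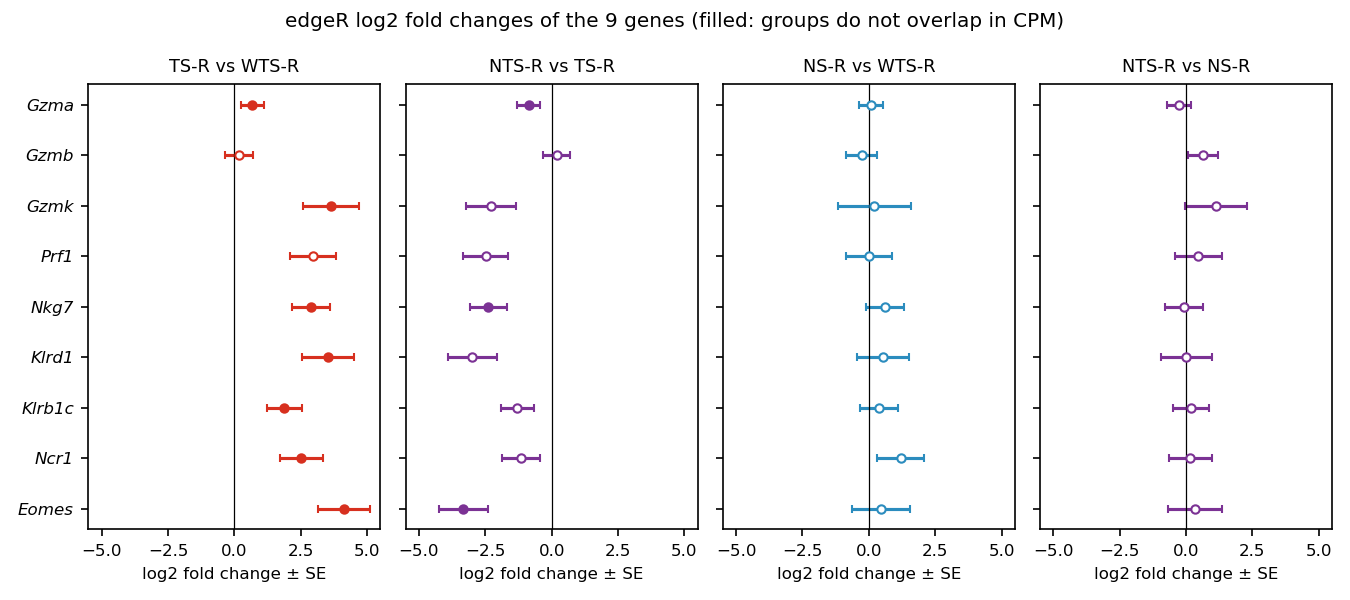
Fitted edgeR log2 fold change (x axis, bars are 1 SE) of each gene in the 4 comparisons, the group named first over the group named after it. Filled points are genes whose groups do not overlap in CPM; the NK receptors, Gzmk, Prf1, Nkg7 and Eomes lie at 1.88 to 4.14 in TS-R over WTS-R and at -1.16 to -3.33 in NTS-R over TS-R, while Gzmb is near 0 in both.

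The calls turned on which TS-R libraries were in the fit. Without TS-R 1, which was rich in skeletal muscle transcripts, edgeR called 7 of the 9 (8.97% of all genes higher), Eomes at 4.52 (FDR 0.00718) and Klrb1c at 2.17 (FDR 0.0400) among them. Without TS-R 4 it called Eomes, Klrd1 and Nkg7 (6.22% higher). Without TS-R 3, the library richest in lymph node transcripts, no member was called, as 0% of all genes. The median over the 9 was then 2.03, with Eomes at 3.16 (FDR 0.0996), Prf1 at 2.03 (FDR 0.181) and Klrb1c at 1.20 (FDR 0.320). Gzma was the exception, since its value hardly moved (0.71 without TS-R 3, FDR 0.459).

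**Figure D3:**
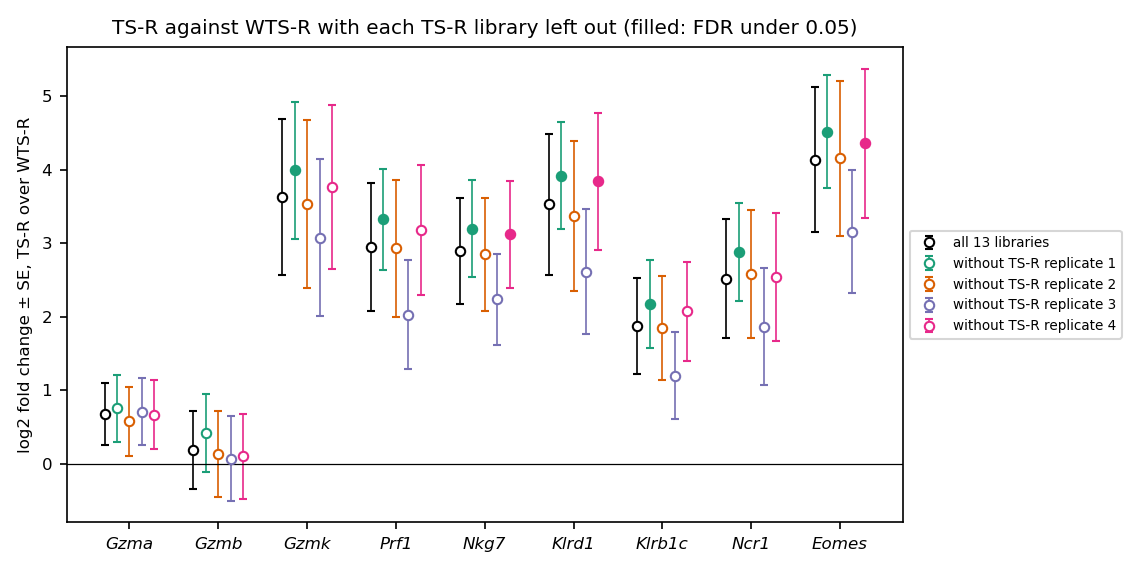
Fitted log2 fold change of TS-R over WTS-R (y axis, bars are 1 SE) for each gene with all 13 libraries and with each TS-R library left out. Filled points passed an FDR of 0.05: 7 genes without TS-R 1, 3 without TS-R 4 and none in the other fits shown; leaving out TS-R 3 gave the lowest value for every gene but Gzma.

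The second comparison asked what the loss of Nlrp3 in diabetic donors did, NTS-R against TS-R. It shares the TS-R libraries with the first, so the same libraries bear on both. Mean levels of all 9 genes were lower in NTS-R, for Gzmb only slightly (1.39 against 1.47 CPM in TS-R). The fitted difference was negative for 8 of the 9, all but Gzmb. The fitted log2 fold change was -3.33 (SE 0.93, edgeR FDR 0.106) for Eomes, -2.98 (SE 0.93, FDR 0.120) for Klrd1, -2.49 (SE 0.84, FDR 0.136) for Prf1 and -2.39 (SE 0.70, FDR 0.110) for Nkg7. It was -2.29 (SE 0.94, FDR 0.206) for Gzmk, -1.29 (SE 0.63, FDR 0.279) for Klrb1c, -1.16 (SE 0.71, FDR 0.394) for Ncr1, -0.86 (SE 0.43, FDR 0.290) for Gzma and 0.19 (SE 0.52, FDR 0.884) for Gzmb. The median over the 9 was -2.29, beside -0.03 over all genes.

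EdgeR called 0 of the 9, as 0% of all genes. At an unadjusted p under 0.05, 5 were lower (Eomes, Gzmk, Klrd1, Nkg7 and Prf1), beside 14.1% of all genes. In Eomes, Gzma and Nkg7 every NTS-R library was below every TS-R library, 3 of 9 beside 16.9% of all genes. DESeq2 called Eomes, Klrd1, Nkg7 and Prf1 (6.61% of genes lower), and voomWithQualityWeights called Eomes, Gzmk, Nkg7 and Prf1 (7.28% lower). Without TS-R 1, edgeR called Eomes, Klrd1, Nkg7 and Prf1 (5.69% lower). Without TS-R 3 the median over the 9 was -1.56 and none was called, as 0% of all genes.

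Between donors without diabetes, NS-R against WTS-R, the groups overlapped for all 9 genes (7.78% of all genes were higher without overlap and 4.02% lower). The fitted log2 fold change ran from -0.28 (SE 0.57) for Gzmb to 1.19 (SE 0.89) for Ncr1, with edgeR FDRs of 0.9997 to 0.9999. Without NS-R 3 the value for Gzmk was -2.14 (SE 1.49, FDR 1), against 0.21 (SE 1.37) with all libraries. No member was under an unadjusted p of 0.05, beside 4.92% of genes higher and 0.388% lower, and no member was called by edgeR (0% of genes), DESeq2 (1.43% higher, 0.00453% lower) or voomWithQualityWeights (0.0811% higher, 0% lower). NS-R 1 had the most Ncr1 of this pair of groups, 15 counts, against 4 and 1 in NS-R 2 and NS-R 3 and 2, 1 and 2 in WTS-R. The airway marker list summed to as much as 6426 CPM in NS-R, against at most 5.11 CPM in WTS-R, and its part was not tested.

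Between the Nlrp3 knockout donors, NTS-R against NS-R, the groups again overlapped for all 9 (5.29% of all genes were higher without overlap and 7.76% lower). The fitted log2 fold change ran from -0.27 (SE 0.46) for Gzma to 1.14 (SE 1.16) for Gzmk, with edgeR FDRs of 0.999 and no member under an unadjusted p of 0.05, beside 1.25% of genes higher and 5.11% lower. Gzmk was decided by NS-R 3, which held 6 of the 7 NS-R counts of this gene: without it the edgeR value was 3.49 (SE 1.36, unadjusted p 0.0253, FDR 0.476), and without both Xist-high libraries 3.48 (SE 1.28, unadjusted p 0.0201, FDR 0.294). Values against so few counts depend on the prior count. No member was called by edgeR (0% of genes), DESeq2 (0.0199% higher, 1.64% lower) or voomWithQualityWeights (0% higher, 0.0695% lower). The SEs of 0.46 to 1.16 are wide, so neither comparison shows that levels were alike.

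The difference between the diabetes effects under the 2 donor genotypes was tested as an interaction, NTS-R minus NS-R less TS-R minus WTS-R. It was -3.80 (SE 1.41, edgeR FDR 0.193) for Eomes, -3.52 (SE 1.35, FDR 0.201) for Klrd1 and -2.98 (SE 0.99, FDR 0.165) for Nkg7. It ran from -2.48 to -1.68 for Prf1, Ncr1 and Klrb1c. For Gzmk it was -2.49 (SE 1.65, FDR 0.443), but -0.14 without NS-R 3 and 0.36 without both Xist-high libraries. It was -0.95 (SE 0.62, FDR 0.437) for Gzma and 0.46 (SE 0.77, FDR 0.795) for Gzmb. EdgeR called 0 of the 9, as 0% of all genes. At an unadjusted p under 0.05, Eomes, Klrd1 and Nkg7 were lower, beside 13.6% of all genes. DESeq2 called Nkg7 (5.77% of genes lower) and voomWithQualityWeights called none (7.24% lower).

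The killer genes were next set beside T cell genes, because cytotoxic T cells share the granule genes. Over the 13 libraries, in log2(CPM + 0.5), Pearson's r with the mean of the T cell list was 0.98 for Eomes and Gzmk, 0.975 for Prf1, 0.97 for Klrd1, 0.96 for Nkg7, 0.93 for Klrb1c and 0.85 for Ncr1. It was 0.69 for Gzma and 0.53 for Gzmb. Without the 2 libraries farthest from the median of the T cell list, these values were 0.91 for Eomes, 0.90 for Gzmk, 0.85 for Prf1, 0.81 for Klrd1, 0.84 for Nkg7, 0.62 for Klrb1c, 0.54 for Ncr1, 0.66 for Gzma and 0.45 for Gzmb. High r was not particular to T cells. With the B cell list, over all 13 libraries, it was 0.98 for Eomes, 0.97 for Prf1, 0.96 for Gzmk and 0.95 for Klrd1. It was also 0.95 for Klrb1c, 0.93 for Nkg7, 0.87 for Ncr1, 0.69 for Gzma and 0.57 for Gzmb. Gzma and Gzmb were closer to the macrophage and monocyte list (r = 0.84 and 0.77) than to the T cell list, and Gzmb, which mast cells can also make, had an r of 0.07 with the mast cell list. These are descriptions over 13 libraries that share depth and tissue content, with library groups mixed.

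**Figure D4:**
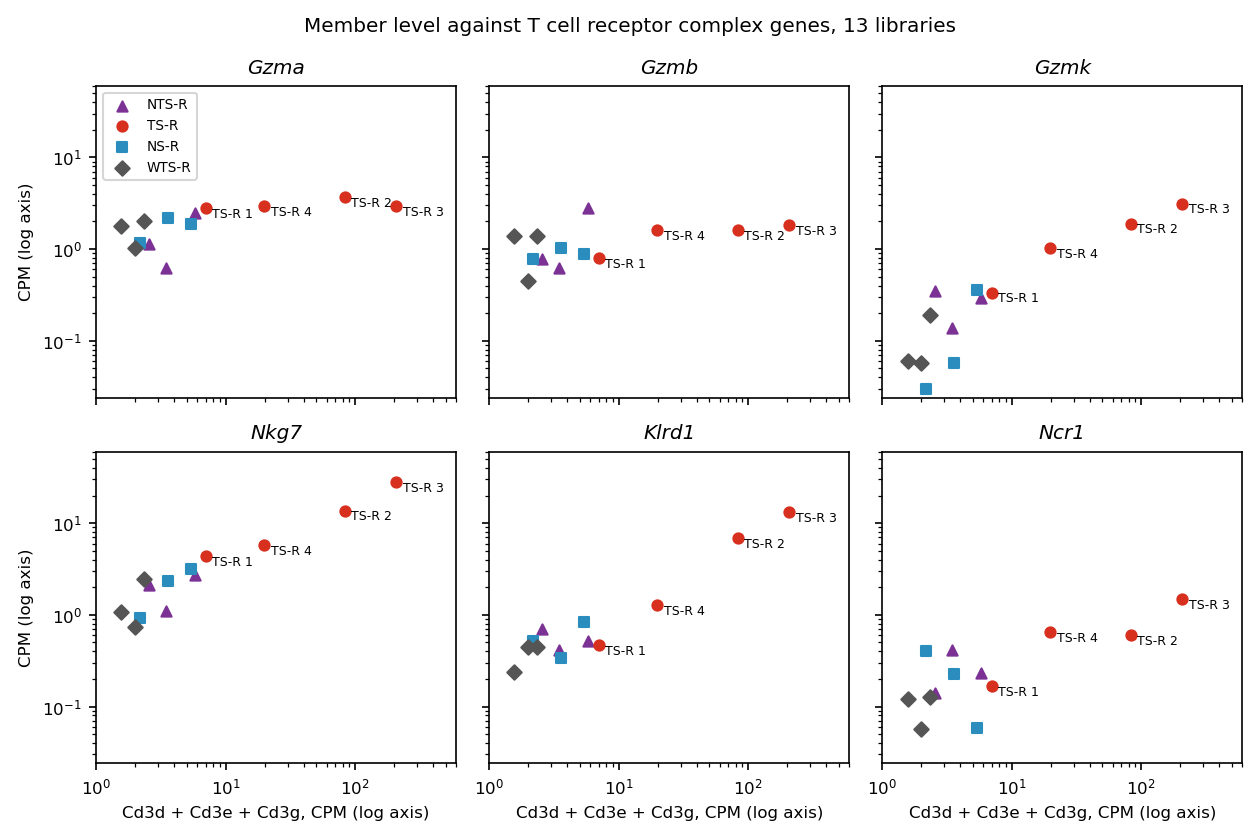
CPM of 6 of the genes (y axis) against the summed CPM of Cd3d, Cd3e and Cd3g (x axis), both on log axes, with 1 point per library; the library with 0 counts of Gzmk is drawn at 0.03 CPM. Across the 4 TS-R libraries Gzma stays between 2.79 and 3.72 CPM and Gzmb between 0.805 and 1.84 CPM, while Gzmk, Nkg7, Klrd1 and Ncr1 are highest in TS-R 3, the library with the most Cd3 counts.

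Relative to the T cell receptor chains, group order turned round for the summed NK receptors and Eomes, but not for every member. The ratio was chosen after the values had been seen, so it has no test. TS-R libraries held 208 to 6080 Cd3 counts and WTS-R libraries 26 to 37. A gene that was higher in TS-R by less than Cd3 therefore has a lower ratio there by construction. Per 100 counts of Cd3d, Cd3e and Cd3g, the NK receptors and Eomes (Klrd1, Klrb1c, Ncr1 and Eomes summed) had 34, 36 and 66.7 counts in NTS-R, 24.5, 15.7, 14.1 and 23.4 in TS-R, 67.9, 39.7 and 30.8 in NS-R, and 42.3, 62.9 and 46.0 in WTS-R. All 4 TS-R libraries were below all libraries of the other 3 groups. Gzma had 43.0, 18.0 and 44.4 per 100 in NTS-R, 39.9, 4.49, 1.43 and 14.9 in TS-R, 53.1, 60.3 and 35.2 in NS-R, and 115, 51.4 and 86.5 in WTS-R. For Gzma too every TS-R library was below every WTS-R library, and TS-R 3, with 6080 Cd3 counts, was the lowest of all. Ncr1 had 2.40, 0.734, 0.724 and 3.25 per 100 across the TS-R libraries, against 7.69, 2.86 and 5.41 for WTS-R, where it rests on 1 or 2 counts per library. Eomes had 7.69, 4.98, 5.40 and 10.1 per 100 across TS-R, against 7.69, 14.3 and 8.11 for WTS-R, and for Eomes those groups overlapped. Gzmk had 4.81, 2.28, 1.51 and 5.2 across TS-R, against 3.85, 2.86 and 8.11 for WTS-R, and overlapped too. Nkg7 had 63.0, 16.6, 13.4 and 28.9 across TS-R, against 69.2, 37.1 and 105 for WTS-R, and also overlapped. For Gzmb, Prf1, Klrd1 and Klrb1c every TS-R library was below every WTS-R library. In WTS-R 1, Prf1 and Klrb1c each rest on 3 counts beside 26 Cd3 counts. The share of all genes that separate in this ratio was not computed, so these separations are description only.

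The make-up of the granzymes differed as well. Gzmk was 5.21%, 10% and 15.6% of the summed Gzma, Gzmb and Gzmk counts in NTS-R, 8.55%, 26.2%, 39.5% and 18.4% in TS-R, 0%, 1.75% and 11.3% in NS-R, and 1.85%, 3.70% and 5.26% in WTS-R. The exact (Clopper-Pearson) 95% interval was 33.2% to 46.1% in TS-R 3 and 4.18% to 15.2% in TS-R 1, against 1.10% to 14.6% in WTS-R 3, for counting error only. In NS-R 1, where no Gzmk was counted among 72 granzyme counts, it reached up to 4.99%. TS-R lay above WTS-R in every library. The intervals of TS-R 1, TS-R 2 and TS-R 4 each overlapped that of WTS-R 2 (0.0937% to 19.0%). That of TS-R 3 overlapped none of the WTS-R intervals. Gzmb was 20.5%, 22.4%, 23.2% and 28.7% of granzyme counts across TS-R, against 42.6%, 29.6% and 38.6% for WTS-R, and this share was also chosen after the values had been seen.

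**Figure D5:**
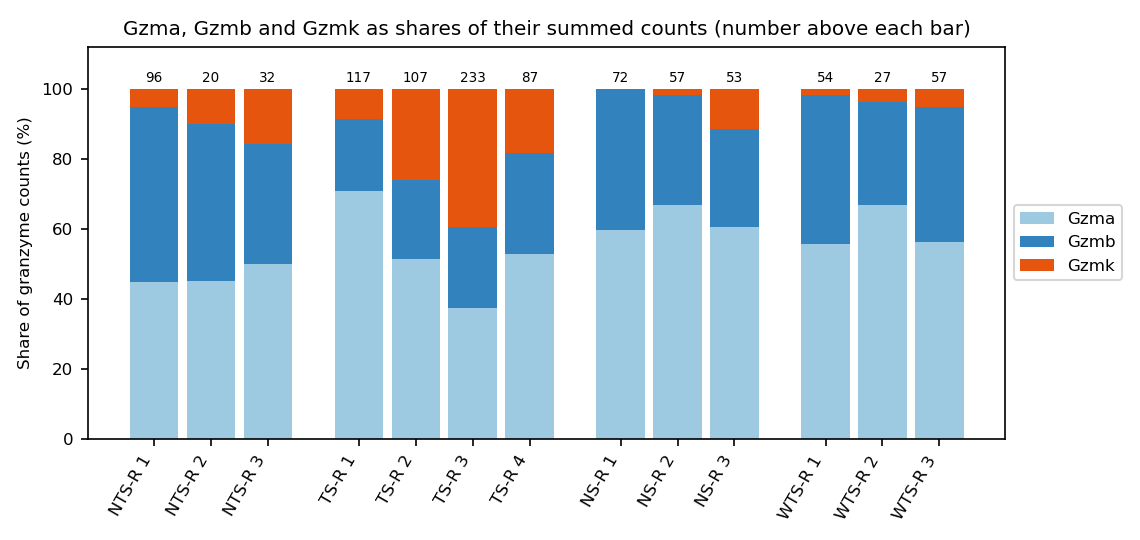
Gzma, Gzmb and Gzmk counts as percentages of their sum in each library, with the summed count above the bar. The Gzmk share reached 39.5% in TS-R 3 and was at most 5.26% in WTS-R.

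The genes whose levels over the 13 libraries were most like the mean of the 9 members, among 15299 with a mean of at least 1 CPM, were Rnase6 (r = 0.994), Rasal3, Acap1, Ikzf1, Trac, Ptprc, Arhgap30, Gimap7, Cd5 and Traf3ip3 (r = 0.991 for the last). Trac and Cd5 are T cell genes, and Ptprc (CD45) and Ikzf1 mark leukocytes in general. For Klrb1c, Ncr1 and Eomes alone they were Mrtfa (r = 0.992), Kynu, A530030E21Rik, Dock10, Ccr6, Cr2, Arhgap30, Traf1, Gimap7 and Bcl11a. Cr2 (CD21) is a gene of B cells and follicular dendritic cells. Many genes of the NK receptor list lay below that mean level and so were not ranked. Others, such as Slamf7, Klrk1, Cd226 and Tyrobp, were ranked and were not among the genes named here.

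Other genes of the killing pathway were read by list, and only those that passed the filter on low counts were tested. Where a gene passed through its TS-R libraries, counting it as higher in TS-R is not independent of that filter. Of 6 other granule genes tested, 1 was higher at an unadjusted p under 0.05 in TS-R against WTS-R, a share near the 15.2% over all genes. It was Ctsw, a cathepsin of killer lymphocytes, at 3.42 (SE 0.82, edgeR FDR 0.0624, DESeq2 adjusted p 9.63e-05). Ctsw had 4.17, 1.79 and 1.48 CPM in NTS-R, 3.25, 25.9, 46.3 and 6.36 CPM in TS-R, 1.35, 2.34 and 3.37 CPM in NS-R, and 1.32, 1.35 and 1.95 CPM in WTS-R. Gzmm, a granzyme of innate killer cells, averaged 2.04 ± 0.211 CPM in NTS-R, 2.96 ± 0.879 in TS-R, 2.61 ± 0.706 in NS-R and 2.10 ± 0.240 in WTS-R (SD, n = 3, 4, 3 and 3). The list's median was 0.71, and 0.22 without TS-R 3. Gzme, Gzmf, Gzmg and Gzmn were not analysed here.

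Of 9 genes of granule release, 5 were higher in TS-R than in WTS-R at an unadjusted p under 0.05 and DESeq2 called 4, beside 15.2% and 8.11% of all genes. The list median was 0.93, and 0.42 without TS-R 3. Unc13d, which primes granules for fusion, gave 3.16 (SE 0.74, edgeR FDR 0.0624) and Coro1a, an actin regulator of leukocytes, 3.14 (SE 0.88, FDR 0.0732). Rab27a, which docks granules, gave 1.56 (SE 0.49, FDR 0.0899) and the syntaxin Stx11 1.88 (SE 0.66, FDR 0.122). Between NTS-R and TS-R, 5 of the 9 were lower at that threshold, beside 14.1% of all genes, and the list median was -0.70 (-0.54 without TS-R 3).

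Of 29 other NK receptors and adaptors listed, 22 passed the filter on low counts. Among these, 13 were higher in TS-R than in WTS-R at an unadjusted p under 0.05, none lower, and DESeq2 called 11. Outside TS-R, Cd96 reached at most 0.413 CPM and Tigit 0.295 CPM, so both passed the filter through their TS-R libraries. All genes were at 15.2% and 8.11% by those rules. The list median was 2.03, and 1.49 without TS-R 3. Cd96, a nectin receptor of NK and T cells, gave 5.39 (SE 1.20, edgeR FDR 0.0624). It held 2 counts in each WTS-R library, so this value depends on the prior count. The adaptor Hcst (DAP10) gave 3.66 (SE 0.83, FDR 0.0624) and Slamf7 3.13 (SE 0.80, FDR 0.0648). Klrb1b, an inhibitory relative of Klrb1c, gave 2.22 (SE 0.48, FDR 0.0624). Klrk1, the activating receptor NKG2D, was measured at 2.14 ± 0.454 CPM in NTS-R, 6.04 ± 4.78 in TS-R, 1.31 ± 0.151 in NS-R and 1.20 ± 0.321 in WTS-R (SD, n = 3, 4, 3 and 3). In NTS-R against TS-R, 9 of the 22 were lower at that threshold, beside 14.1% of all genes. The list median was -1.22 and became -0.63 without TS-R 3. The Klra and Klrb1 families have near-identical copies, so their counts, Klrb1c included, may be split or shared between relatives.

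Among 15 transcription factors, 9 were higher in TS-R and 1 was lower at an unadjusted p under 0.05 (15.2% and 7.07% of all genes). DESeq2 called 8 higher and 1 lower (8.11% and 1.53% of all genes). The list median over WTS-R was 1.77, and 0.78 without TS-R 3. Tox2 gave 4.28 (SE 0.90), Gata3 2.71 (SE 0.66) and Prdm1 2.55 (SE 0.53), each at an edgeR FDR of 0.0624. Tbx21 (T-bet), the T-box partner of Eomes, had 0.754, 1.17 and 0.492 CPM in NTS-R, 2.15, 6.22, 20.3 and 2.57 CPM in TS-R, 0.865, 0.513 and 0.827 CPM in NS-R, and 0.961, 1.02 and 0.378 CPM in WTS-R. Every TS-R library was above every other for Tbx21. Nfil3, which NK cells need to develop and which the circadian clock also drives in many tissues, was the gene that was lower, at -2.23 (SE 0.46, FDR 0.0624). Nfil3 had 39.1, 7.18 and 15.2 CPM in NTS-R, 16.4, 6.97, 9.68 and 9.31 CPM in TS-R, 37.3, 29.7 and 12.6 CPM in NS-R, and 38.0, 40.7 and 43.7 CPM in WTS-R. In NTS-R against TS-R, 10 of the 15 were lower and 2 higher at that threshold, beside 14.1% and 5.59% of all genes. The list median was -1.47, and -0.67 without TS-R 3.

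Of 13 cytokine receptors, 10 were higher in TS-R than in WTS-R at an unadjusted p under 0.05, beside 15.2% of all genes. DESeq2 called 8 of them higher, beside 8.11%. The list median was 2.37 (1.63 without TS-R 3). Il2rb, the shared receptor chain for IL-2 and IL-15, had 12.6, 2.83 and 4.15 CPM in NTS-R, 2.75, 37.4, 101 and 18.7 CPM in TS-R, 3.38, 4.33 and 6.55 CPM in NS-R, and 2.82, 3.61 and 3.84 CPM in WTS-R. TS-R 1 was below all WTS-R libraries for Il2rb, and the other 3 TS-R libraries were above every library of the other groups. Il21r gave 4.87 (SE 1.11, edgeR FDR 0.0624), Il18rap 3.03 (SE 0.69, FDR 0.0624) and Cxcr6, a homing receptor of resident lymphocytes, 2.996 (SE 0.65, FDR 0.0624). For NTS-R set against TS-R, 9 of 13 were lower and 1 higher at that threshold, beside 14.1% and 5.59% of all genes. The list median was -2.01 (-1.41 without TS-R 3).

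Of 14 cytokines and chemokines, 8 were higher in TS-R than in WTS-R at that threshold, beside 15.2% of all genes, with a median of 1.51 (0.95 without TS-R 3). Those of smallest p were Ltb at 5.33 (SE 1.09, edgeR FDR 0.0624) and Ccl5, a chemokine of killer lymphocytes, at 3.75 (SE 0.90, FDR 0.0624), followed by Lta at 6.66 (SE 1.76, FDR 0.0670) and Il12b at 4.28 (SE 1.14, FDR 0.0686). Ifng, the main cytokine of NK cells, was near the limit of detection, with 0.232, 0 and 0.422 CPM in NTS-R, 0.0671, 0.338, 0.648 and 0.514 CPM in TS-R, 0, 0.114 and 0.0590 CPM in NS-R, and 0.0601, 0 and 0.252 CPM in WTS-R. Its groups overlapped. Of 9 markers of type 1 innate lymphoid and resident cells, 4 were higher and 1 lower at that threshold in TS-R against WTS-R. All genes were at 15.2% higher and 7.07% lower. The list median was 0.69 (0.31 without TS-R 3). The smallest p was that of Il7r at 4.48 (SE 0.97, FDR 0.0624), a receptor of naive and memory T cells and of innate lymphoid cells. Between NTS-R and TS-R, 8 of the 14 cytokine genes were lower and 1 higher, and 5 of the 9 resident markers were lower and 1 higher in NTS-R. Over all genes 14.1% were lower and 5.59% higher. The medians of the cytokine and resident lists were -1.40 and -1.02, and without TS-R 3 -0.94 and -0.62.

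For scale, several marker lists of other leukocytes and of lymph node had larger medians than the 9 killer genes in TS-R against WTS-R, at 4.97 for T cells (17 of 17 under an unadjusted p of 0.05), 5.70 for B cells (9 of 9), 4.94 for plasma cells (5 of 6), 4.74 for lymph node venules and stroma (5 of 6) and 4.51 for neutrophils (6 of 6). By that rule 15.2% of all genes were higher. The summed lymph node list had 9.22 to 32.4 CPM in NTS-R, 23.5 to 1902 CPM in TS-R, 20.7 to 24.2 CPM in NS-R and 14.6 to 48.9 CPM in WTS-R. The neutrophil list had 4.71 to 7.87 CPM in NTS-R, 46.4 to 319 CPM in TS-R, 4.94 to 11.5 CPM in NS-R and 1.95 to 12.6 CPM in WTS-R. Themis, Cr2, Glycam1, Madcam1, Ly6g, Camp, Cxcr2 and Retnlg were at 0 in at least 1 library outside TS-R. Medians were smaller than that of the 9 genes for plasmacytoid dendritic cells, at 1.58 (4 genes tested), and thymocytes, at 0.63 (2 genes tested). They were also smaller for macrophages and monocytes, at 0.60, and for mast cells, at -0.39. In TS-R 1, Gzma, Nkg7 and Eomes were above every library of the other groups, and the other members were not. The share of all genes above every other group in TS-R 1 was not computed. Its lymph node sum of 23.5 CPM was within the range of each other group. Its T cell sum of 41.3 CPM was just above the highest NTS-R library at 40.9 CPM. Its neutrophil sum of 76.7 CPM was above every library of the other groups, as was its plasma cell sum of 726.4 CPM, narrowly (NS-R 3 had 725.3 CPM). Its macrophage and monocyte sum of 314 CPM was above NTS-R and NS-R but within the WTS-R range. The part of these contents was not tested.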

How the data were processed

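RNA of perivascular fat was sequenced from 13 recipients' libraries, made with a poly(A)-type mRNA kit as paired-end libraries per the labels. The deposited table holds whole-number counts per gene, which the authors made with HISAT2 and featureCounts per the submitters' processing notes; tool versions, build, annotation and strandedness were not given in the sources used here. Identifiers gave a symbol for 33302 of 34013 genes and none for 711. That replicates are separate animals is not stated, so a p-value here covers the spread among libraries, which may be technical. Any pair of libraries within a group differed by a chi-square of at least 32.4 per degree of freedom, so none was counted as a repeat.

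CPM are counts over the library total, times 1000000. The main test was edgeR 4.0.16, run in R 4.3.3 (quasi-likelihood, TMM, filterByExpr, all 13 libraries in 1 fit, 17270 genes, Benjamini-Hochberg FDR under 0.05). Fits with libraries left out kept these genes. The common biological coefficient of variation was 0.389. Alternatives were DESeq2 1.42.0, limma 3.58.1 with voomWithQualityWeights, RLE size factors, no filter, the groups of the comparison only, the replicate number as a block, each library left out, and no Xist-high libraries. The pipeline was tested on simulated data. Exon lengths for CPM per kb came from GENCODE M21 (GRCm38) and promoters from RefSeq.

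The members and gene lists were chosen with earlier results of these data known. Named were the 9 members, up to 4 genes per other list and comparison with the smallest unadjusted p (mean of 0.5 CPM or more), tissue markers, and the 10 genes most like the members. Gzmm, Klrk1, Tbx21, Il2rb and Ifng were also given as central genes of their lists, after their values were seen.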

Additional observations from a re-analysis of the deposited data

Results flagged for a closer look

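Within TS-R, TS-R 3 stood apart in the summed macrophage and monocyte genes, at 529 CPM against 314, 329 and 326 CPM in TS-R 1, TS-R 2 and TS-R 4. The gap to the nearest library was 0.9288 of the range of the group, above Dixon's 95% critical value of 0.829 for 4 samples. TS-R 1 stood apart in the summed skeletal muscle genes, at 10900 CPM against 678, 12.9 and 1158 CPM in TS-R 2, TS-R 3 and TS-R 4, with a gap of 0.8948 of the range. Chance flags about 1 in 20 groups. None of the 9 killer genes was flagged in this way within TS-R, the only group large enough to be tested.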

How the results depend on the processing

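In every fit run, all members but Gzmb kept a positive fold change for TS-R against WTS-R and a negative one for NTS-R against TS-R. The counts past an FDR of 0.05 were not stable. The main edgeR test, with TMM, the filter and no block, called 0 members and 0 genes in each comparison.

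In TS-R against WTS-R, DESeq2 called 5 members and 1938 genes, voomWithQualityWeights 7 and 3816, and edgeR with no filter 3 and 889. Members above every WTS-R library numbered 9 without TS-R 1 (28.7% of genes) and 7 without each other TS-R library, a count chosen after seeing the data. Leaving out 1 library gave 0 to 7 members, 0 to 1907 genes (1907 without TS-R 1, 1345 without TS-R 4) and a member median of 2.03 to 3.20. In NTS-R against TS-R, DESeq2 called 4 members and 1468 genes, voomWithQualityWeights 4 and 1638, and no filter gave 404 genes. Leaving out 1 library gave 0 to 4 members, 0 to 1019 genes (1019 without TS-R 1, 904 without TS-R 4) and a median of -2.63 to -1.56. In NS-R against WTS-R, 317 genes were called by DESeq2, 14 by voomWithQualityWeights, 138 with no filter and 0 to 189 without 1 library (189 without NS-R 3). In NTS-R against NS-R, these counts were 334, 12, 126 and 0 to 218 (218 without NS-R 3), and 4 with the groups of the comparison only. For the interaction DESeq2 called 1 member and 1183 genes, voomWithQualityWeights 1872, no filter 92 and leaving out 1 library 0 to 508 (508 without TS-R 1, 167 without NS-R 3, 51 without TS-R 4, 5 without TS-R 3), with a median of -2.83 to -1.68. Without the Xist-high libraries, 50 genes passed in TS-R against WTS-R, 310 in NS-R against WTS-R, 382 in NTS-R against NS-R and 278 in the interaction, and the member medians were 2.07 in TS-R against WTS-R, -1.59 in NTS-R against TS-R and -1.19 in the interaction. The cause of these shifts was not tested.

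The replicate numbers did not pair the libraries, since the correlations of same-numbered libraries ran from -0.186 to 0.207, and in no comparison did every library correlate best with its own number. With the replicate block, in which TS-R 4 carries no weight, 4 members (Eomes, Gzmk, Klrd1 and Nkg7) and 784 genes passed in TS-R against WTS-R, 76 genes in NTS-R against TS-R and 19 in the interaction.

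Signs changed in these cases. Gzmb gave -0.16 to 0.43 over the libraries left out when TS-R was set against WTS-R. For NTS-R against TS-R it gave -0.21 by voomWithQualityWeights and -0.71 to 0.52 over the libraries left out. In NS-R against WTS-R, voomWithQualityWeights gave -0.17 for Gzma, -1.02 for Gzmk, 0.35 for Prf1 and -0.0861 for Eomes, and the fit without the Xist-high libraries -0.0434 for Gzma, -2.11 for Gzmk and -0.17 for Eomes. Prf1 there was 0.0137 by DESeq2, 0.0001 with RLE size factors, 0.0038 with the groups of the comparison only and 0.0746 with the replicate block. Leaving out 1 library gave -0.13 to 0.38 for Gzma, -2.14 to 1.07 for Gzmk, -0.50 to 0.26 for Prf1 and -0.16 to 1.06 for Eomes. In NTS-R against NS-R, Nkg7 was 0.14 with the replicate block, 0.24 by voomWithQualityWeights and 0.42 without the Xist-high libraries, Klrd1 -0.0075 with no filter and -0.0080 with the block, Klrb1c -0.0837 by voomWithQualityWeights and Ncr1 -0.20 without the Xist-high libraries. There, leaving out 1 library gave -0.88 to 0.0631 for Gzma, -0.25 to 0.98 for Gzmb, -0.50 to 0.41 for Nkg7, -0.26 to 0.46 for Klrd1, -0.50 to 0.52 for Klrb1c, -0.32 to 0.85 for Ncr1 and -0.24 to 0.97 for Eomes. In the interaction, Gzmb was -0.43 to 0.81 over the libraries left out, and Gzmk was 0.36 without the Xist-high libraries.

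Low counts limit Gzmk, Ncr1, Eomes and Klrb1c most, as 3 counts equal 0.0811 to 0.211 CPM.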
